A study of Mus musculus with 16 samples.

Results

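The extra chromosome of Ts65Dn mice carries, beside the distal end of mouse chromosome 16 (MMU16), the first stretch of mouse chromosome 17 (MMU17), and the 30 genes described here are the first 30 MMU17 genes of the expression table. They were taken from 13807 listed genes, of which 703 lie on MMU17 and 680 of these reached a mean of 10 normalized counts over the 4 Ts65Dn pups and their 4 euploid littermates. Sorted by the number in the identifier, the first 30 of the 680 are the members and 650 lie behind them, and 1 row before the last member fell under the minimum. The identifiers give a chromosome and a number but no symbol or position, so the members are called by their place, 1 to 30, and that the numbers follow the chromosome is an assumption. The stretch was selected on the Ts65Dn over euploid ratios of these same pups, so its Ts65Dn values are a description and carry no test. The TcMAC21 pups did not choose it, and their comparison was tested.

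Ts65Dn is a mouse model of Down syndrome in which a small, freely segregating translocation chromosome adds an extra copy of the genes it holds. A gene with 3 copies in place of 2 gives 1.5 times the RNA if each copy is transcribed as before. The MMU17 piece is of interest because its genes are not counterparts of human chromosome 21 genes, so any dose effect they have belongs to the mouse model and not to the human trisomy. In TcMAC21 mice the added material is human, a nearly complete chromosome 21 long arm on an artificial chromosome called HSA21q-MAC, and they have the usual pair of MMU17 copies, which makes them a trisomy model without the MMU17 piece.

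Known genes of the first part of MMU17 show what kind of functions lie there, although none could be matched to a member. On GRCm39, the build also called mm39, the protein-coding genes named here run from Tiam2 (chromosome 17, 3376808 to 3581619, plus strand), an activator of the small GTPase Rac, to Pde10a (chromosome 17, 8744204 to 9205482, plus strand), a phosphodiesterase that breaks down cyclic nucleotides. Between them lie Arid1b (chromosome 17, 5044607 to 5397931, plus strand), a subunit of the BAF chromatin remodelling complex, and Gtf2h5 (chromosome 17, 6130061 to 6137387, plus strand), a small subunit of the transcription and repair factor TFIIH. Synj2 (chromosome 17, 5991555 to 6094586, plus strand) encodes a phosphoinositide phosphatase and Ezr (chromosome 17, 7005440 to 7050611, minus strand) the protein ezrin, which ties the cell membrane to actin. Zdhhc14, Snx9, Serac1, Tulp4 and the ciliary radial spoke genes Rsph3b and Rsph3a lie in the same interval. It also holds near-identical copies (Dynlt1a, Dynlt1b, Dynlt1c and Dynlt1f, the Rsph3 pair, and Rnaset2a with Rnaset2b), whose reads can be split between copies, and which members this touches is not known.

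Poly(A) RNA of whole cerebella was sequenced from untreated pups at postnatal day 6, an age at which granule cell precursors divide under Sonic hedgehog signalling. The 4 Ts65Dn pups and their 4 euploid littermates were on a C57BL/6J x C3H/HeJ background, kept as an advanced intercross, and came from 2 litters. The 4 TcMAC21 pups and their 4 euploid littermates were on a C57BL/6J (B6) x DBA/2J (D2) background and came from 3 litters. The sex of each pup is not stated, and the tissue could not be checked against marker genes because the table carries no symbols. In RNA of a whole tissue, fewer cells of a type and less RNA per cell cannot be told apart.

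The libraries held 6317856 to 25719969 reads on listed genes, and 13491 to 70397 of these fell on the members. The summed normalized counts of the appended human chromosome 21 genes were 48003 to 61687 in the 4 TcMAC21 libraries and 168 to 338 in the 12 others, so the labels of this cross match the human counts. The library of Ts65Dn euploid littermate 1 stood apart: it lay outside the range of the other 3 euploid littermates for 85.5% of all genes, against 22.6% to 62.0% for each of those 3. Among the members it lay below the other 3 in 12 and above them in 13, so the counts of members in Ts65Dn, and the ratios of the members it moved most, are also given without it. Place 8 was one of these, with 494, 452, 529 and 450 normalized counts in the Ts65Dn pups and 406, 254, 192 and 226 in the euploid littermates, a ratio of 1.78 that was 2.15 without littermate 1.

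All 30 members had a mean normalized count above that of the euploid littermates in Ts65Dn, where 50.2% of the 13430 genes measured in the cross did. Their median ratio of group means was 1.52 (range 1.15 to 2.62), their mean 1.56 ± 0.301 (SD over 30 genes) and their geometric mean 1.54, beside a median of 1.0 over all genes. The ratio was between 1.3 and 1.7 in 18 members, as in 8.64% of all genes, and above 1.7 in 7 members, as in 0.886% of all genes. The remaining 5 members lay under 1.3, a number that was 3 without Ts65Dn pup 4. In 20 members every Ts65Dn pup exceeded every euploid littermate, as in 4.53% of all genes. In 9 of them, at places 2, 7, 9, 21, 22, 23, 24, 29 and 30, every Ts65Dn pup also exceeded all 8 pups of the TcMAC21 cross, as in 0.707% of all genes. Nothing is read from these shares, since the members were chosen by the same contrast. Without euploid littermate 1 the median ratio was 1.52 (range 1.04 to 4.13), 7 members lay under 1.3, 13 from 1.3 to 1.7 and 10 above 1.7, and 23 were higher in every Ts65Dn pup. Shares over all genes are not given without that littermate, and groups with fewer pups come apart more readily, so nothing is read from these counts either.

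**Figure D1:**
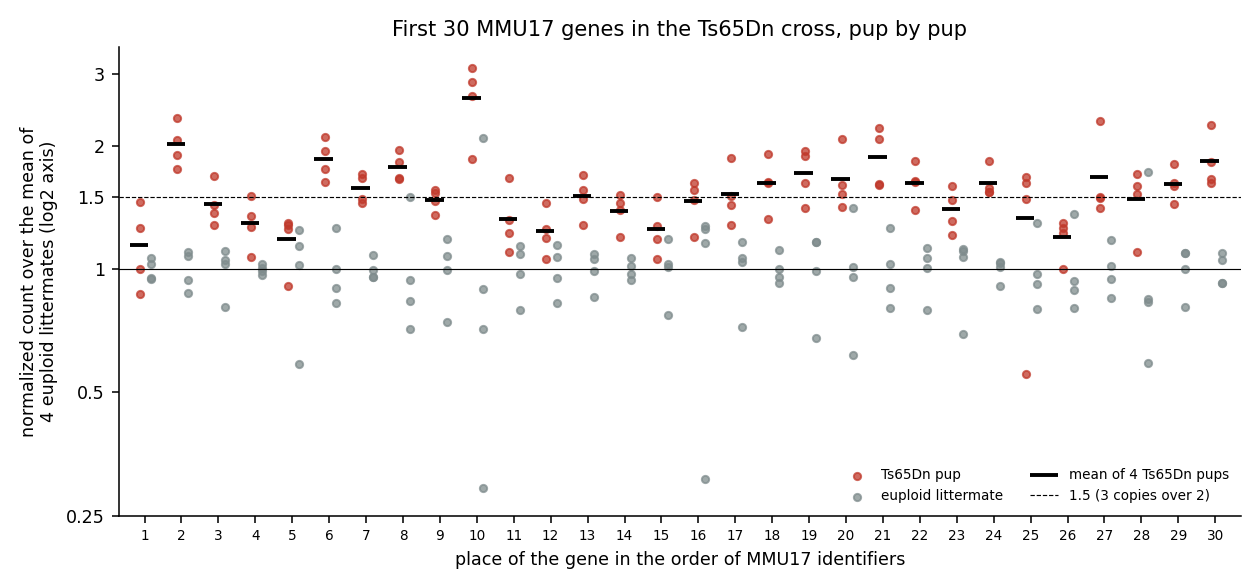
Normalized count of each Ts65Dn pup (red) and each euploid littermate (grey) over the mean of the 4 euploid littermates, on a log2 axis, for the 30 members in the order of their identifiers. Bars are the mean of the 4 Ts65Dn pups, which lies above 1 at every place and between 1.15 at place 1 and 2.62 at place 10, around the dashed line at 1.5.

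The single pups behind these group means scattered more. The 4 Ts65Dn pups had median ratios over the members of 1.54, 1.53, 1.54 and 1.51, and 30, 30, 28 and 29 of the 30 members lay above the euploid mean in them. Of the 120 values, one for each member and pup, 117 were above the euploid mean. In 7 members all 4 Ts65Dn pups lay above 1.5, in 4 members all lay below it, and in the other 19 the pups fell on both sides. Without euploid littermate 1 the counts above the euploid mean were 30, 30, 27 and 27, or 114 of 120, and 9 members had all pups above 1.5, 7 all below it and 14 on both sides. The members were chosen by the ratios of these pups, and the pup values of a member share a euploid mean. These counts are therefore a description only, and no share over all genes is given for them. On the log2(normalized count + 1) scale the difference between Ts65Dn and euploid pups had a median of 0.66 over the members (range 0.17 to 1.51), with standard errors of 0.11 to 0.46, and a median of 0.01 over all genes.

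The largest ratio was that of place 10, identifier chr17.211990, which was also the member with the lowest counts. It had normalized counts of 14.1, 23.4, 21.7 and 20.1 in Ts65Dn pups 1 to 4 and of 15.8, 5.41, 2.21 and 6.78 in euploid littermates 1 to 4. The groups overlapped, because euploid littermate 1 exceeded Ts65Dn pup 1. Its ratio of 2.62 became 4.13 without that littermate, and it rests on few reads. The Ts65Dn values stand for 21, 31, 22 and 16 reads and the euploid values for 10, 10, 1 and 8, the 1 read lying below the limit of 3 reads, which is at most 6.63 normalized counts in any library.

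The next members in order of ratio, at places 2, 21 and 6, had counts well above that limit. Place 2 had 103, 112, 122 and 138 normalized counts in the Ts65Dn pups and 64.8, 51.4, 55.3 and 63.5 in the euploid littermates, a ratio of 2.02. Place 21 had 4413, 4427, 6068 and 5716 against 3461, 2459, 2829 and 2202, a ratio of 1.88 (2.07 without euploid littermate 1). Place 6 had 6505, 5442, 6020 and 5058 against 3912, 3106, 2789 and 2554, a ratio of 1.86 (2.04 without that littermate). In all 3 of these the lowest Ts65Dn pup stood above the highest euploid littermate. At places 2 and 21 it also stood above every pup of the TcMAC21 cross, whereas at place 6 the TcMAC21 euploid littermates reached 5103 normalized counts, above the lowest Ts65Dn pup.

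At the other end, places 1, 5, 26 and 12 had ratios of 1.15, 1.19, 1.20 and 1.24, and in none of them were the groups apart. Place 1 had 140, 120, 82.7 and 95.4 normalized counts in the Ts65Dn pups and 90.1, 90.8, 102 and 98.2 in the euploid littermates. Ts65Dn pups 1 and 2 were thus above all euploid littermates, pup 3 was below them and pup 4 was among them. Place 5 had 111, 108, 78.7 and 112 against 50.6, 98.4, 88.4 and 108, and its ratio fell to 1.04 without euploid littermate 1, the lowest value. Place 26 had 1119, 1155, 1089 and 890 against 1213, 791, 833 and 713, and there the same littermate was the highest value, so its ratio was 1.36 without it. At place 12 the values were 292, 251, 239 and 212 against 166, 191, 214 and 230, with only Ts65Dn pup 4 inside the euploid range, and the ratio was 1.17 without euploid littermate 1.

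The 4 members with the highest counts, at places 14, 6, 21 and 16, had ratios of 1.39, 1.86, 1.88 and 1.47. Place 14, identifier chr17.212044, had the highest counts of the 30, with 10608, 10226, 11146 and 8769 in the Ts65Dn pups and 7125, 7803, 7461 and 6876 in the euploid littermates. The groups did not overlap, and the ratio was 1.38 without euploid littermate 1. Place 16, identifier chr17.212196, had 4526, 4362, 3341 and 4107 against 854, 3487, 3240 and 3560. Here euploid littermate 1 lay far below the other 3 and decided the ratio, which was 1.47 with it and 1.19 without it. Place 25, with the next lowest counts after place 10, had 23.5, 25.7, 26.6 and 8.79 against 20.6, 14.6, 15.5 and 12.7, a ratio of 1.33 (1.48 without euploid littermate 1) in which Ts65Dn pup 4 lay below every euploid littermate. Split by count, the 15 members with the larger means had a median ratio of 1.58 (range 1.20 to 1.88) and the 15 with the smaller means one of 1.48 (range 1.15 to 2.62). Normalized counts are not divided by transcript length, so these are not levels that can be ranked between genes.

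**Figure D2:**
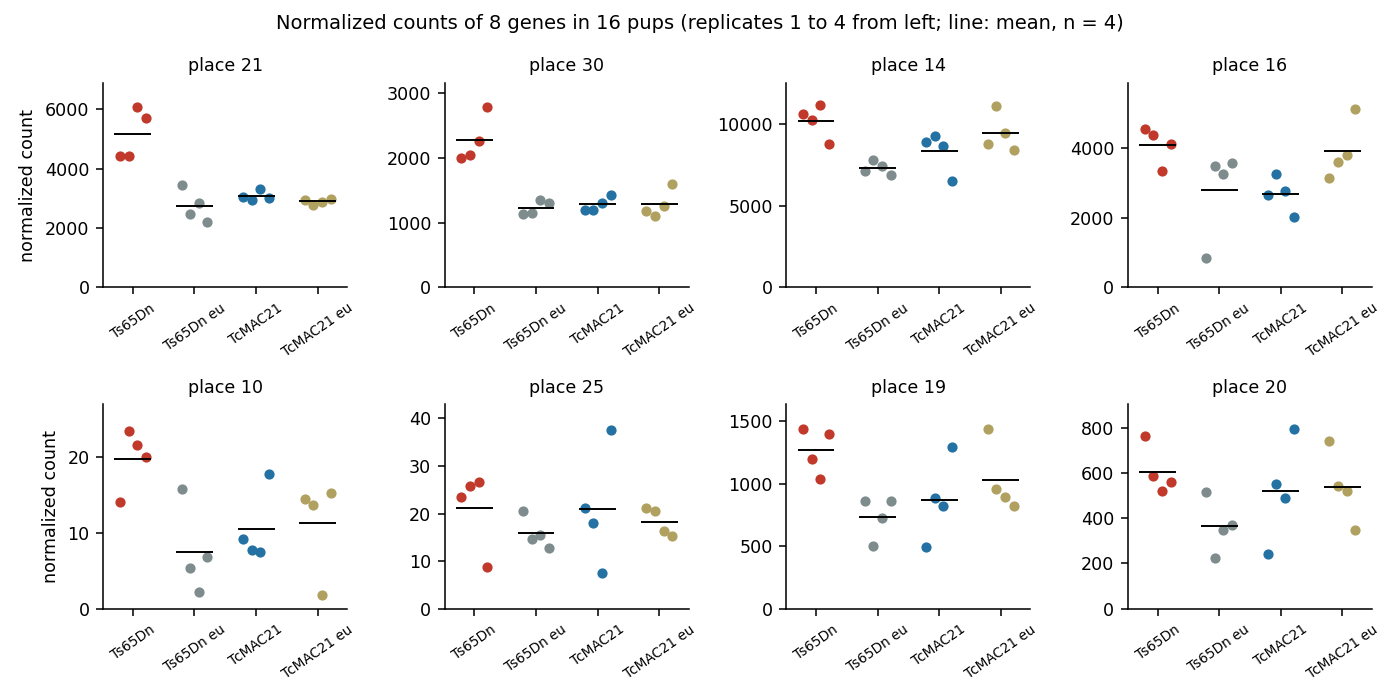
Normalized counts of 8 members in all 16 pups, replicates 1 to 4 from left to right within each group, with a line at the mean of the 4 pups (eu, euploid littermates). At places 21 and 30 the Ts65Dn pups stand above the other 12, at places 10 and 25 counts are low and groups mix, and at place 16 a single euploid pup lies at 854.

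The spread between pups was larger than counting alone gives for most members. The coefficient of variation over the 4 Ts65Dn pups had a median of 13.7% over the members, where the reads alone would give 3.62%. In the euploid littermates the medians were 16.1% and 5.58%, and the first was 8.88% without littermate 1. The TcMAC21 cross was similar, with 17.1% in TcMAC21 pups and 17.7% in their littermates against 4.89% and 4.66% from counting. The spread was at or below the counting value in 2 members in Ts65Dn pups, 5 in their littermates, 3 in TcMAC21 pups and 1 in theirs. These counting values cover sampling of reads only.

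Along the order of identifiers the ratio varied from place to place and was lower behind the last member. In runs of 5 places the geometric mean ratios were 1.39 (places 1 to 5), 1.83 (6 to 10), 1.34 (11 to 15), 1.60 (16 to 20), 1.56 (21 to 25) and 1.55 (26 to 30). Places 1 to 15 had a median of 1.45 and places 16 to 30 one of 1.63. The following runs had 1.18 (31 to 35), 0.961 (36 to 40), 0.981 (41 to 45), 0.890 (46 to 50), 1.17 (51 to 55) and 1.16 (56 to 60). Over places 31 to 60 the median was 1.01, with 7 of the 30 genes above 1.3 and 3 higher in every Ts65Dn pup, and over the 650 later genes it was 1.06.

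The stretch ends at a fixed number of genes and not at a known breakpoint. Just inside the limit, place 28 had a ratio of 1.49, place 29 of 1.62 and place 30 of 1.84. Place 30 had 2008, 2052, 2261 and 2788 normalized counts in the Ts65Dn pups and 1142, 1143, 1357 and 1300 in the euploid littermates, and all 12 pups without the Ts65Dn chromosome lay below the lowest Ts65Dn pup. Place 28 had 107, 113, 77.7 and 121 against 122, 41.6, 59.7 and 58.4, where euploid littermate 1 was the highest of the 8 pups and the ratio was 1.96 without it. Just outside, place 31 had a ratio of 1.15, place 32 of 0.744 and place 33 of 1.39. Further on, places 34, 35, 54, 55, 59 and 60 had ratios of 1.41, 1.39, 1.33, 1.43, 1.34 and 1.48, inside the range of the members, and at places 35, 59 and 60 every Ts65Dn pup exceeded every euploid littermate. The MMU17 row left out for low counts lies after place 10, with a mean of 7.89 normalized counts over the cross and a ratio of 1.25.

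**Figure D3:**
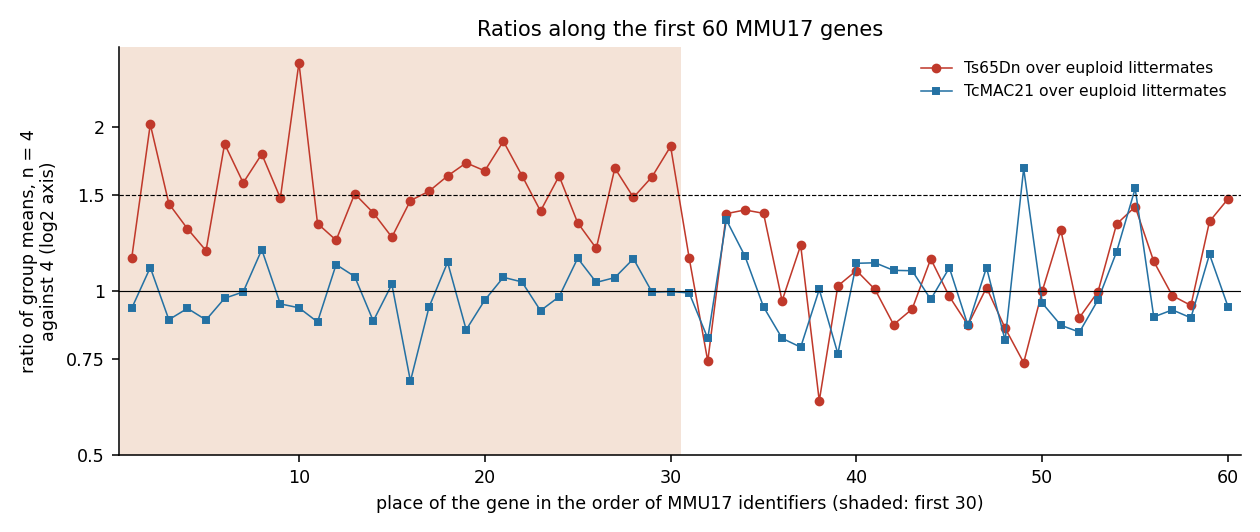
Ratio of group means, trisomic over euploid littermates (4 against 4), for the first 60 MMU17 genes in identifier order on a log2 axis, Ts65Dn in red and TcMAC21 in blue, with the 30 members shaded. The Ts65Dn line stays above 1 through the shaded places and crosses it repeatedly afterwards, with a median of 1.01 over places 31 to 60, while the TcMAC21 line lies between 0.684 and 1.19 over the members and between 0.768 and 1.68 over places 31 to 60.

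With the 30 members put together, the 4 Ts65Dn pups stood above the 12 others. The geometric mean of the members over the euploid pups of the cross, on log2(normalized count + 1), was 1.62, 1.57, 1.53 and 1.49 in Ts65Dn pups 1 to 4 (1.55 ± 0.0531, SD, n = 4). It was 0.971 to 1.03 in their euploid littermates. The last 72 MMU16 genes of the table, taken as the MMU16 part of the extra chromosome, stood at 1.43 ± 0.0339 (SD, n = 4) in the same Ts65Dn pups, with a range of 1.40 to 1.48 that lies below all 4 values of the MMU17 members. Both stretches were selected on these ratios, so the difference between them was not tested. The later MMU17 genes stood at 1.06 ± 0.0318. Summed, the members took 0.314% ± 0.0162 of all normalized counts in Ts65Dn pups and 0.208% ± 0.0103 in their littermates (SD, n = 4 each).

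**Figure D4:**
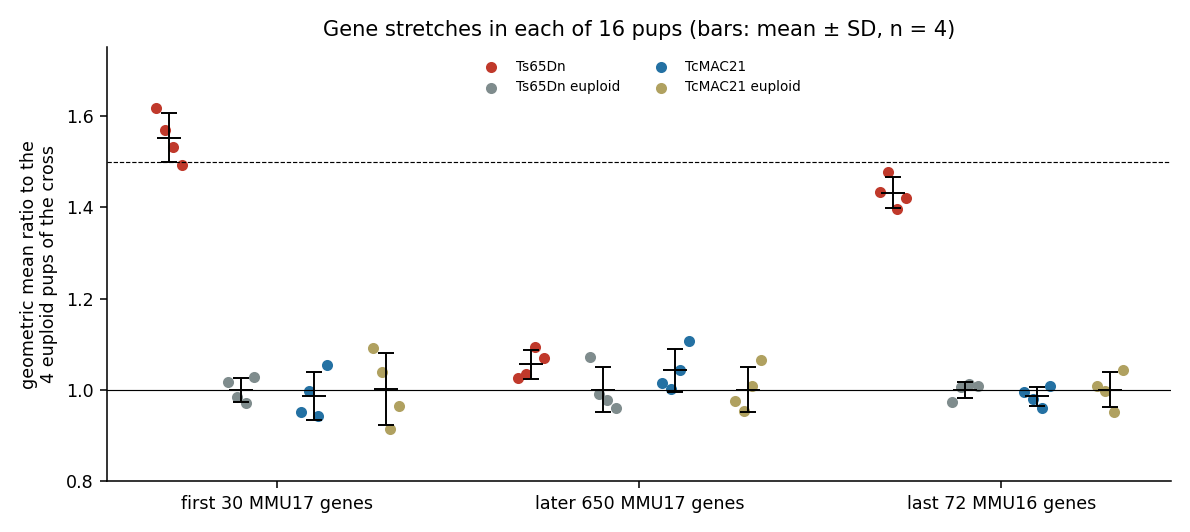
Geometric mean ratio of each pup to the 4 euploid pups of its cross, for the 30 members, the 650 later MMU17 genes and the 72 last MMU16 genes, with bars for mean ± SD (n = 4). The Ts65Dn pups sit at 1.49 to 1.62 for the members and 1.40 to 1.48 for MMU16, and the other 12 pups lie around 1 in all 3 sets.

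In TcMAC21, which has no extra MMU17 copy, no member differed from the euploid littermates by the test. Limma on log2(normalized count + 1), adjusted by Benjamini-Hochberg over 13523 genes, called 0 of 30 members at an adjusted p under 0.05, where it called 0.813% of all genes. EdgeR also called 0 of 30 (0.813% of all genes), as did DESeq2 (0.939%) and limma with a block for the replicate number (1.78%). At an unadjusted p under 0.05, limma passed 1 of 30 members, place 16, and 7.31% of all genes. With the replicate block it passed 2, places 3 and 16, and with all 16 pups in one fit 0. Shares over all genes are not given for those fits. No member had groups that did not overlap in either direction, as 5.04% of all genes had, and this number was 2 without TcMAC21 pup 2 and 1 without TcMAC21 euploid littermate 1. Shares over all genes are not given with a pup left out. The median log2 difference over the members was 0.01 (range -0.54 to 0.32), beside 0.00 over all genes, and adjusted p by limma ranged from 0.604 to 0.995. The ratio of group means lay between 0.684 and 1.19, and between 0.9 and 1.1 in 18 members. Every member had a higher ratio in Ts65Dn than in TcMAC21, and 28 of the 30 Ts65Dn ratios lay above the highest TcMAC21 ratio. These differences were not tested, because the rule fixed the Ts65Dn side. No share over all genes is given for either count, and nothing is read from them.

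The precision of this comparison differed between members. The 95% interval of the log2 difference lay below a 1.5-fold increase (0.58 on the log2 scale) in 21 of the 30 members. In the other 9, at places 2, 8, 10, 13, 18, 20, 25, 27 and 28, it reached that size. With the same-numbered pups of this cross as a block, the interval lay below it in 24 members and reached it in 6, at places 10, 18, 20, 25, 27 and 28, so for these 6 neither fit separates no change from a change as large as an extra copy gives. Place 21 had the smallest standard error, 0.10, with 3032, 2949, 3316 and 3021 normalized counts in TcMAC21 pups and 2959, 2771, 2890 and 2996 in euploid littermates. Its log2 difference was 0.08 (95% interval -0.14 to 0.30, limma adjusted p = 0.819). Place 10 had the largest, 0.56, with 9.19, 7.79, 7.51 and 17.8 normalized counts against 14.5, 13.7, 1.82 and 15.3.

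**Figure D5:**
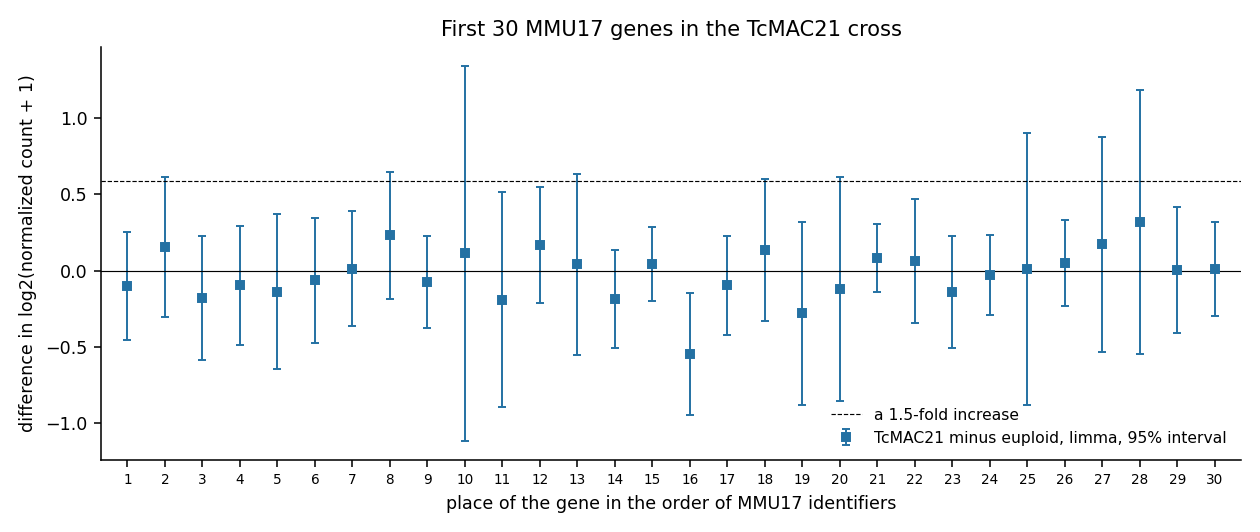
Difference in log2(normalized count + 1), TcMAC21 minus euploid littermates, with its 95% interval from limma without the block (4 against 4 pups) for the 30 members, and a dashed line at a 1.5-fold increase. The intervals of 29 members include 0, that of place 16 does not before adjustment over all genes, and 9 intervals reach the dashed line.

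The most negative log2 differences in TcMAC21 were those of places 16, 19, 11 and 14. Place 16 had 2652, 3254, 2753 and 2024 normalized counts in TcMAC21 pups and 3131, 3593, 3788 and 5106 in euploid littermates, lower in each of the 4 same-numbered pairs though the groups overlapped. Its log2 difference was -0.54 ± 0.18 (SE, n = 4 against 4, limma adjusted p = 0.604), -0.65 to -0.41 with any single pup left out, and 0.139 was its adjusted p with the replicate block in limma. Place 19 had 495, 882, 822 and 1289 against 1435, 954, 893 and 823, a log2 difference of -0.28, with the lowest of the 8 values in TcMAC21 pup 1 and the highest in its same-numbered littermate. That difference was -0.034 without TcMAC21 pup 1 and -0.49 without TcMAC21 pup 4. Places 11 and 14 had log2 differences of -0.19 each, which ran from -0.38 to 0.035 and from -0.24 to -0.072 with single pups left out, the upper values without TcMAC21 pup 3 and TcMAC21 pup 4.

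The most positive log2 differences were those of places 28, 8, 27 and 12, with 0.32, 0.23, 0.17 and 0.17, and limma adjusted p of 0.825, 0.754, 0.888 and 0.793. Single pups carried much of them: without TcMAC21 euploid littermate 4 places 28, 27 and 12 stood at -0.066, -0.12 and 0.077, and without TcMAC21 pup 4 place 8 stood at 0.062. At place 8 the TcMAC21 pups had 341, 340, 375 and 561 normalized counts and the euploid littermates 306, 292, 361 and 397. Every pair was higher in TcMAC21 there, and the groups overlapped. In all, 4 members (places 2, 8, 12 and 21) were higher and 2 (places 3 and 16) lower in TcMAC21 in all 4 same-numbered pairs, beside 17.7% and 17.2% of all genes.

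Several neighbouring members varied widely between the pairs of the TcMAC21 cross. At places 17 to 20, 27 and 28, picked out after their values were seen, the TcMAC21 pup over its same-numbered littermate was 0.329 to 0.672 in pair 1 and 1.33 to 2.27 in pair 4. Pairs 2 and 3 were 0.915 to 1.29 and 0.920 to 1.44. The medians of these 6 were 0.648, 1.01, 1.01 and 1.80 in pairs 1 to 4. The other 24 members had medians of 1.01, 0.943, 1.04 and 0.987, with ranges of 0.632 to 1.28, 0.571 to 1.27, 0.459 to 4.13 and 0.396 to 2.45, but the extremes of pair 3 and the highest value of pair 4 came from places 10 and 25, which have few reads. Without those places the other 22 members ranged from 0.755 to 1.28, 0.634 to 1.27, 0.727 to 1.31 and 0.396 to 1.41, with the 0.396 at place 16. The 6 places were picked by these values, so their contrast with the other members follows from the choice. No share over all genes is given for it. Outside the stretch, places 59 and 60 also rose, from 0.400 and 0.517 in pair 1 to 2.27 and 1.51 in pair 4. Place 32 went the other way, from 2.04 to 0.462. At place 20, TcMAC21 pup 1 had 244 normalized counts against 741 in the same-numbered euploid pup, and TcMAC21 pup 4 had 792 against 350.

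The euploid pups of the crosses also differed in these genes, as they did in later MMU17 genes. The mean of the TcMAC21 euploid littermates over that of the Ts65Dn euploid littermates had a median of 1.08 over the members (range 0.754 to 1.55) and of 1.0 over all genes. Over places 31 to 60 it ran from 0.666 at place 34 to 1.89 at place 60. The spread over all genes is not given, so nothing particular to the members is read from their range. Without Ts65Dn euploid littermate 1 these medians were 1.14 (range 0.663 to 2.36, the highest at place 10) and 1.02. At places 17 to 20 the ratio was 1.39 to 1.55 with that littermate and 1.42 to 1.71 without it, and at place 16 it was 1.40 with and 1.14 without it. Strain background and litter differ between these groups together and cannot be told apart. Of the 20 members whose Ts65Dn and euploid pups did not overlap, places 3, 4, 6, 8, 13, 14, 17, 18, 19, 20 and 27 had a pup of the TcMAC21 cross at or above the lowest Ts65Dn pup.

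Some members kept nearly the same ratio to each other in every pup. The ratio of place 22 to place 29 was 0.856 to 1.01 over the 16 pups, while place 22 itself ranged from 269 to 753 normalized counts. Of the 435 pairs of members this pair had the smallest spread, 1.18-fold between its lowest and highest ratio, where the median pair had 3.22-fold. Places 24 and 30 came next with 1.35-fold, then places 7 and 24 with 1.42-fold. Members of a pup share its library and were chosen on 1 contrast, so these ratios are a description of 16 libraries only. Places 19 and 20, which have consecutive identifiers, kept a ratio of 1.60 to 2.50, a spread of 1.56-fold. Other places with consecutive identifiers spread 1.63-fold (17 and 18), 2.53-fold (27 and 28) and 3.34-fold (11 and 12), the last wider than the median pair. Whether consecutive identifiers are parts of 1 gene model is not given.

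The summed counts of the members were also higher in Ts65Dn pups than in all 12 others. The sum was 45277 ± 1781 normalized counts in Ts65Dn pups and 29202 ± 984 in their euploid littermates, with ranges of 43395 to 47226 and 27972 to 30151 (SD, n = 4 each). In the TcMAC21 cross it was 33628 ± 1668 in TcMAC21 pups and 36122 ± 1334 in euploid littermates, with ranges of 31729 to 35329 and 35089 to 38027 that overlap, and it was lower than in the same-numbered littermate in all 4 pairs. The few members with the highest counts, places 14, 6, 21 and 16, weigh most in these sums.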

How the data were processed

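Poly(A) RNA of 16 whole cerebella was sequenced, 4 pups in each of 4 groups, with groups and replicate numbers taken from the sample labels. The authors mapped paired 50 bp reads with STAR 2.4.2a to mm39 with human chromosome 21 appended, assembled 1 set of gene models from all samples (PsiCLASS) and scaled the counts by DESeq2. Each deposited signal is thus a normalized count, a gene's reads over its library's size factor, kept to 2 decimals. How multi-mapped reads were handled and how the listed genes were selected is not given in the sources used here. Reads were recovered by dividing by the value of 1 read, and at least 99.99% of values in every library were whole multiples of it within 0.0051 normalized counts. The 3-read limit is 3 times the value of 1 read.

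The members and lists were chosen with earlier results of these data known. Ratios are of group means. Limma 3.58.1 (lmFit, eBayes with trend, pseudocount 1) was fitted in R 4.3.3 over all genes with a mean of at least 10 in the 8 pups of a cross, and its p was used for TcMAC21 only, two-sided with Benjamini-Hochberg adjustment. Alternatives were edgeR 4.0.16 and DESeq2 1.42.0 on the recovered reads, a pseudocount of 0.1, no minimum or a minimum of 50, TMM scaling or quantile normalization, the first 25 or 35 rows, all 16 pups in one fit, a replicate block and each pup left out in turn. Leaving pups out of the comparison with all 12 others, and Ts65Dn euploid littermate 1 out of the comparison of euploid pups and the counts by pup, was added after seeing the data. The limma fit was also run on counts simulated from these data, a check that set no requirement for 1.5-fold changes. How many of those it recovered is not given here. Places named in the text are those with the 4 largest and 4 smallest Ts65Dn ratios, the 4 highest and 2 lowest counts, the last 3 inside and first 3 outside the limit and the 4 most positive and 4 most negative TcMAC21 differences, and other places named were chosen after their values were seen. Identifiers are printed for 3 of these.

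Trisomic pups were taken with littermates, and same-numbered pups of the TcMAC21 cross deviated together from their group means (correlations over genes of 0.491, 0.502, 0.197 and 0.500), so there the numbers were treated as pairs. In the Ts65Dn cross the correlations were -0.451, -0.135, -0.354 and -0.224. The labels do not state which pups share a litter. Apart from the litters, nothing says how far samples are independent, and p-values measure the spread between these pups. Annotated positions are from GENCODE on GRCm39. Figures were drawn with Python 3.11.15, NumPy 2.4.6, pandas 2.3.3 and matplotlib 3.10.9.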

Additional observations from a re-analysis of the deposited data

Results flagged for a closer look

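In 13 of 120 sets of 4 pups (30 members in 4 groups) a single pup lay far from the other 3 by Dixon's 95% criterion, where chance gives about 1 in 20 and where 8.33% of such sets over all genes did. Over all genes the share was 4.38% in Ts65Dn pups, 11.3% in their littermates, 11.9% in TcMAC21 pups and 5.71% in theirs, so nothing particular to the members is read from the number. Among Ts65Dn pups these were place 5 with 78.7 normalized counts in pup 3 (others 108 to 112), place 24 with 1223 in pup 4 (others 1027 to 1051) and place 27 with 167 in pup 1 (others 102 to 109). Among the Ts65Dn euploid littermates both were littermate 1, with 854 at place 16 (others 3240 to 3560) and 300.4 at place 23 (others 464 to 488). TcMAC21 pup 4 stood apart at place 8 with 561 (others 340 to 375), at place 10 with 17.8 (others 7.51 to 9.19), at place 13 with 1909 (others 842 to 937) and at place 23 with 284 (others 432 to 449). TcMAC21 pup 2 did so at place 9 with 203 (others 224 to 227). Among the TcMAC21 euploid littermates, littermate 3 stood apart at place 10 with 1.82 (others 13.7 to 15.3), and littermate 4 at place 13 with 1543 (others 893 to 998) and at place 24 with 773 (others 634 to 641).

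At 3 members every Ts65Dn pup lay above its euploid mean and every TcMAC21 pup below its own, a difference between models that was not tested. The members were chosen by the Ts65Dn side of it, and on the TcMAC21 side every pup lay below its euploid mean in 5 of 30 members and in 18.5% of all genes, so the number itself says nothing of the members. The TcMAC21 ratios of group means were 0.948 at place 9 (pups 0.872 to 0.977), 0.882 at place 14 (pups 0.687 to 0.982) and 0.684 at place 16 (pups 0.518 to 0.833).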

How the results depend on the processing

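Of the results that summarize the 30 members, 131 recomputed values lay within 1.5 times (counts) or the spread between pups (other values) of the reported one, and 7 did not. The geometric mean Ts65Dn ratio was 1.48 over the first 35 rows and 1.51 to 1.58 with single pups left out. The median ratio was 1.58 as a ratio of geometric means and 1.5 to 1.56 with single pups left out. The number of members under 1.3 was 3 to 7, those from 1.3 to 1.7 13 to 19, those above 1.7 6 to 10 and those higher in every Ts65Dn pup 20 to 23 with single pups left out. Those higher than in all 12 other pups numbered 9 without Ts65Dn euploid littermate 1 and 10 without TcMAC21 pup 4. In TcMAC21 limma called 0 members under each alternative run. Members at an unadjusted p under 0.05 numbered 2 with the replicate block for the paired pups and 0 with all 16 pups in one fit. Members with groups that did not overlap numbered 0 to 2 with single pups left out. The block changed no other call. With single pups left out, the TcMAC21 log2 difference ranged from -0.38 to 0.035 at place 11, turning positive without TcMAC21 pup 3. It ranged from -0.12 to 0.42 at place 27 and from -0.066 to 0.57 at place 28, turning negative without TcMAC21 euploid littermate 4, and none of these 3 members was called. At place 14 the Ts65Dn log2 ratio was 0.32 under quantile normalization and 0.48 as deposited. The causes were not tested. At places 10 and 25, with mean normalized counts of 13.7 and 18.5 in the Ts65Dn cross, single values rest on few reads.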
